A study of Macaca mulatta with 30 samples.

Results

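Within cohort 7a, the only cohort whose animals span low, heavy and very heavy drinking, the 4 libraries of heavier drinkers were set against the 3 libraries of low drinkers. The heavier drinkers were 2 animals labelled very heavy (VHD) and 2 labelled heavy (HD). The low drinkers carry the label LD. The libraries were chosen by cohort and drinking category alone, and they make up 7 of the 30 libraries of the study, 1 library for each animal. All were male rhesus macaques (Macaca mulatta) with no experimental history before ethanol, and all 7, the low drinkers included, were induced to drink ethanol at 4% (w/v) and then drank it freely for over 12 months, 22 hours a day, with water and meals at hand. No animal without ethanol is among them, so the groups differ in the amount drunk and not in exposure as such. A VHD animal averaged over 3 g/kg of ethanol a day and passed 4 g/kg on at least 10% of days, an HD animal reached 3 g/kg on at least 20% of days, and an LD animal met neither definition nor that of a binge drinker (BD). The labels give the mean age of cohort 7a as 4.18 years at induction and 5.70 years at the end of drinking. Intake was the choice of each animal and was not assigned, and the labels give no separate intake for an animal.

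Cortical area 32 is a medial prefrontal region that receives input from limbic areas and takes part in the control of emotion and of behaviour under conflict. Ethanol acts on several membrane proteins there, among them GABA-A receptors, which carry fast inhibition, and NMDA-type glutamate receptors, which carry part of fast excitation. Prefrontal cortex also contains myelin-forming oligodendrocytes, astrocytes, microglia and the cells of vessel walls, and bulk RNA mixes all of them.

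RNA of the dissected area was sequenced after removal of ribosomal RNA, with a stranded kit per the labels, and the values are reads per gene that the authors scaled to a common upper quartile, called normalized reads below. Reads summed over the listed genes, called depth below, came to 8.57 and 13.0 M in VHD (M, 10 to the power of 6). They were 5.51 and 10.7 M in HD, and 7.80, 8.49 and 7.98 M in LD. The range over the 30 libraries was 4.39 to 13.99 M. Depth averaged 9.47 ± 3.21 M in VHD and HD together (SD, n = 4) and 8.09 ± 0.36 M in LD (SD, n = 3), a difference with an exact two-sided permutation p of 0.514. Within each category the animals are always given in the same order, and called the first, the second and the third by it. Library numbers 1 to 8 hold 2 of the 4 VHD and HD libraries and 0 of the 3 LD libraries of this cohort, so the comparison is partly tied to the order of the library numbers. Neuronal and glial markers were measured as the tissue label implies: 12 of 16 excitatory and 17 of 18 inhibitory neuron markers, and 15 of 15 astrocyte markers, passed the minimum level. Of 12 blood cell markers, 8 were in the table and 1 passed, and their summed level was 20.5 to 53.4 normalized reads in VHD and HD and 41.9 to 65.2 in LD.

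Differences are given on the scale of log2(normalized reads + 1), VHD and HD minus LD, for the 12718 genes that reached 10 normalized reads in 3 or more of the 7 libraries. limma's test with Benjamini-Hochberg adjustment called 0 of 12718 genes (0%) at an adjusted p of 0.05, the smallest adjusted p being 0.673. edgeR's quasi-likelihood test on whole reads called 0 as well. At an unadjusted limma p under 0.05 there were 914 genes (7.19%), of which 488 (3.84%) were higher and 426 (3.35%) lower in VHD and HD, and edgeR gave 853, of which 369 were higher and 484 lower. All 4 VHD and HD animals lay above all 3 LD animals for 551 genes (4.33%) and below them for 397 (3.12%). The 914 became 402 without the third LD animal, 468 without the first LD animal, 568 without the first VHD animal, 1660 without the second HD animal and 1665 without the second LD animal. The 7 animals divide into 4 and 3 in 35 ways. An exact permutation test of a single gene that doubles the smaller one-sided p, as used here for depth, cannot give a two-sided p below 0.0571.

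Among genes with a mean of at least 50 normalized reads, those of smallest p in each direction were taken for description, 11 higher and 12 lower in VHD and HD. They were picked on this comparison, so that their separation and p-values describe them and support nothing. Each had an adjusted p of 0.673 by limma, and in each the 4 heavier drinkers did not overlap the 3 low drinkers, against the shares of 4.33% and 3.12% over all genes. With only library numbers above 8, 2 heavier against 3 low drinkers, the median difference was 0.48 for the higher and -0.43 for the lower genes; these animals are among those that chose the genes, and groups that do not overlap fix the sign. Of the 286 measured exons of these 23 genes, 274 had the direction of the whole gene.

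SFRP2, a secreted protein that binds Wnt ligands, lies at 4:153595404-153603896 in the coordinates of the exon names and was the gene with the largest difference of the 23. It had 91.9 and 68.5 normalized reads in the VHD animals and 98.8 and 53.0 in the HD animals, against 29.4, 20.3 and 32.9 in the LD animals. The lowest heavy drinker stood above the highest low drinker by a wide margin, and the BD animal of the cohort, at 34.2, sat with the LD animals. The difference was 1.46 ± 0.27 (limma, 95% interval 0.88 to 2.03). LTBR, the lymphotoxin beta receptor of the tumour necrosis factor receptor family, had 249.9 and 179.5 normalized reads in VHD and 164 and 207 in HD, against 119, 90.8 and 127 in LD, a difference of 0.83 ± 0.18. Its BD animal, at 162, lay between the groups.

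DZIP1, which encodes a protein at the base of cilia, differed by less but with little spread within either group. Its values were 2255 and 2309.6 normalized reads in VHD and 2200.5 and 1955 in HD, against 1509, 1649 and 1668 in LD, and the difference was 0.44 ± 0.09. SFXN4, a sideroflexin of the mitochondrial inner membrane, had 394 and 339 in VHD and 407 and 394 in HD, against 233, 324 and 240.2 in LD. Here the second LD animal came close to the lowest VHD animal, and the difference was 0.54 ± 0.14. RPL29, a protein of the large ribosomal subunit, had 262 and 131 in VHD and 251 and 175 in HD, against 104, 108 and 105 in LD. The LD animals were nearly level while the second VHD animal was far below the first, and the difference was 0.90 ± 0.21. Ribosomal protein genes have many processed copies in the genome, so the RPL29 value is uncertain where reads could be split between copies.

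NR4A3, an orphan nuclear receptor transcribed as an immediate early gene after neuronal activity, had 386 and 349 normalized reads in VHD and 358 and 334 in HD, against 218, 312 and 207 in LD, a difference of 0.56 ± 0.14. The second LD animal was just below the lowest HD animal. The other higher genes were RPAP2, an RNA polymerase II phosphatase (0.47 ± 0.12), COCH, an extracellular matrix protein (0.66 ± 0.17), PLOD2, which hydroxylates lysines of collagen (0.48 ± 0.12), TXNL1, a thioredoxin-like protein (0.37 ± 0.10), and C10orf88 (0.50 ± 0.13).

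**Figure D1:**
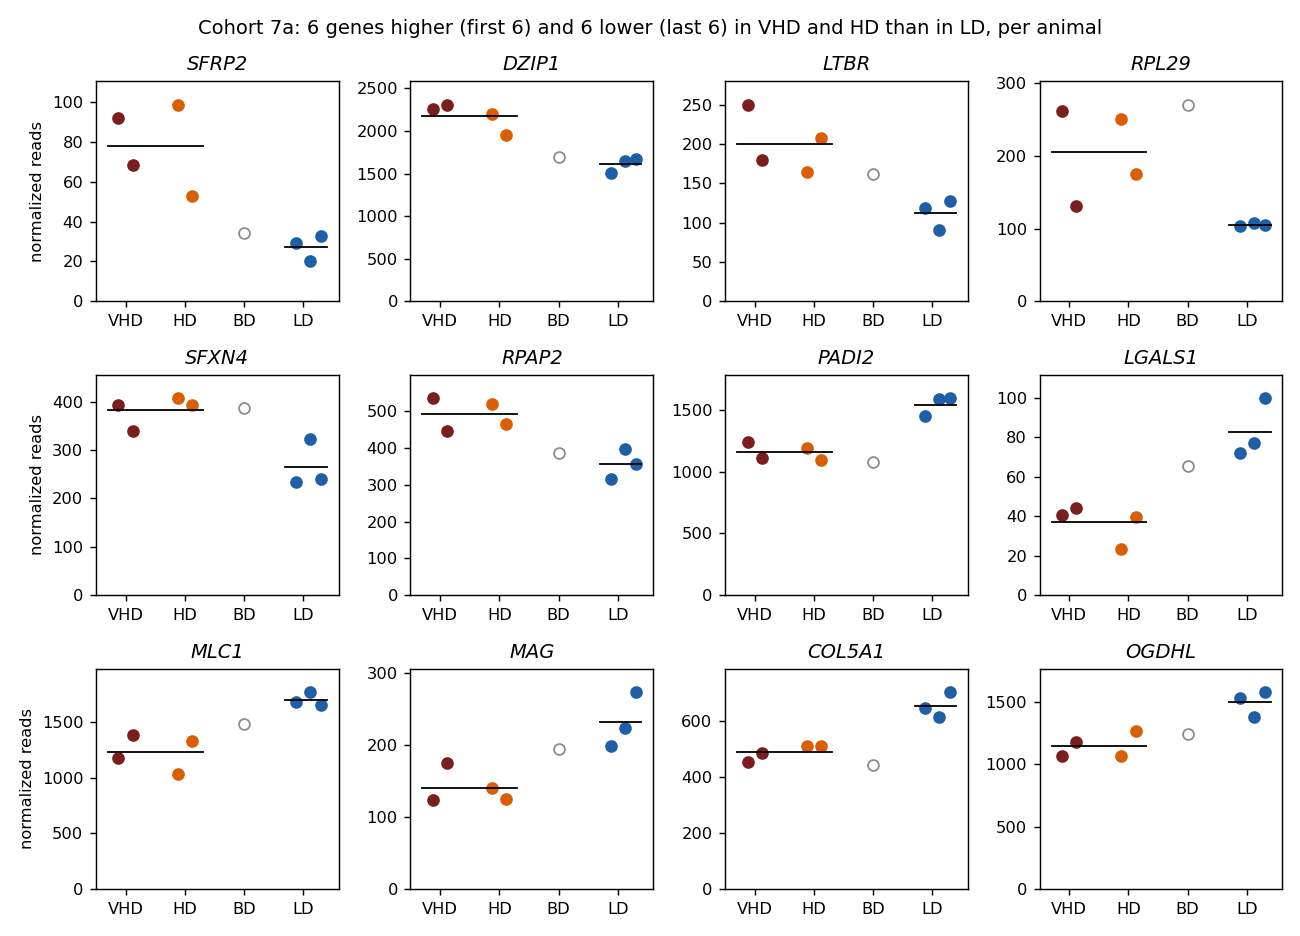
Normalized reads per animal of cohort 7a for the first 6 genes higher and the first 6 genes lower in VHD and HD; the vertical axis is linear, each point is 1 animal, lines are the means of VHD with HD (n = 4) and of LD (n = 3), and open circles are the BD animal, which entered no mean. In each panel the VHD and HD points do not overlap the LD points, as for SFRP2, where the VHD and HD animals lie at 53.0 to 98.8 and the LD animals at 20.3 to 32.9.

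The 12 genes lower in VHD and HD had PADI2 at their head, which encodes a peptidylarginine deiminase of oligodendrocytes that converts arginines of myelin basic protein to citrulline, and lies at 1:15676887-15728709 in the exon names. PADI2 had 1237 and 1111 normalized reads in VHD and 1192 and 1097 in HD, against 1449.9, 1587 and 1594 in LD. Each group held together closely, the BD animal (1077) was below all 7, and the difference was -0.41 ± 0.09 (95% interval -0.60 to -0.23). MAG, myelin-associated glycoprotein of the myelin membrane next to the axon, at 19:30854491-30875630, had 123 and 175 in VHD and 141 and 125 in HD, against 198, 223 and 273 in LD. Its LD values were the more spread in normalized reads, but on the log2 scale the SD was 0.23 in both groups. The first LD animal was nearest to the second VHD animal, and the difference was -0.71 ± 0.17. CNTN2, a contactin that holds potassium channels beside the node of Ranvier, had 1165 and 1248 in VHD and 1233 and 1337 in HD, against 1589, 1433 and 1879 in LD, a difference of -0.38 ± 0.10.

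MLC1, a membrane protein of astrocyte endfeet whose loss in humans causes a leukoencephalopathy with cysts, had 1181 and 1384 normalized reads in VHD and 1038 and 1329 in HD, against 1682, 1772 and 1659.6 in LD, a difference of -0.47 ± 0.10. The LD animals were close together and the first HD animal was the lowest. GFAP, the intermediate filament of astrocytes, was named whatever its value; it had 11271 and 12391 in VHD and 9560.4 and 11054 in HD, against 12786, 14814 and 22293 in LD. All 4 heavier drinkers were below the LD animals, of which the third was far above the rest, and the difference was -0.55 ± 0.15. TRIL, an accessory protein of toll-like receptor signalling found in astrocytes, differed by -0.54 ± 0.14.

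LGALS1, which encodes galectin-1, a lectin that binds galactose-containing glycans, had 40.6 and 44.0 normalized reads in VHD and 23.4 and 39.3 in HD, against 71.8, 76.9 and 99.7 in LD. It was the largest difference of the 12 lower genes (-1.17 ± 0.25), at a low level in which 1 read of these libraries is worth 0.699 to 1.67 normalized reads. COL5A1, a fibrillar collagen chain, had 454 and 487 in VHD and 511 and 509.7 in HD, against 647, 614 and 703 in LD, a difference of -0.42 ± 0.10 with the BD animal at 442. The others were OGDHL, a mitochondrial oxoglutarate dehydrogenase-like enzyme (-0.39 ± 0.09), FANCG, a DNA repair protein of the Fanconi complex (-0.56 ± 0.14), AAAS, a nuclear pore protein (-0.73 ± 0.19), ARAP1, a GTPase-activating protein (-0.45 ± 0.12), and the centrosome gene CEP250 (-0.37 ± 0.10). Over the 23 genes, the BD animal was nearer to the VHD and HD mean for 16, 8 of the 11 higher and 8 of the 12 lower. The share over all genes was not computed, so the count cannot be read as particular to these genes. The BD library is number 4, within library numbers 1 to 8.

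Cohorts 4 and 7b hold other animals with the same labels, 2 HD and 7 LD, and a fit with cohort as a term gave the HD minus LD difference in them. Cohort 4 was older, with a mean age of 9.98 years at the end of drinking, and in cohort 7b that age was 7.18 years. Cohort 5 has no LD animal and entered no fit. limma called 0 genes in these 9 libraries, with 619 at an unadjusted p under 0.05 (4.87%), 198 higher (1.56%) and 421 lower (3.31%). Without the first LD animal of cohort 4 limma called 1 gene, OMD, and without the third it called 3, COL1A1, HSPG2 and IGF2; HSPG2 and IGF2 were named after their values were seen. The 619 became 382 without the HD animal of cohort 7b, 410 without the second LD animal of cohort 7b and 957 without the first LD animal of cohort 4. No animal is shared with cohort 7a, but the tie to library numbers is partly shared. The HD library of cohort 7b is number 6. Among these LD libraries only the first of cohort 7b, number 8, lies within numbers 1 to 8. Whether library order plays a part in the shared signs was not tested. Over all 12718 genes, 65.9% had the same sign in cohorts 4 and 7b as in cohort 7a. The share was 81.6% of the 488 genes higher and 82.2% of the 426 genes lower in cohort 7a at an unadjusted p under 0.05.

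Of the 23 genes, 21 had the same sign in the other cohorts. With each library there left out in turn, 14 of the 21 kept that sign and 7 turned it, which were DZIP1, RPAP2, C10orf88, RPL29, LTBR, LGALS1 and AAAS. The 11 higher genes had a median difference of 0.08 there, and 0 of 11 had an unadjusted p under 0.05. The 12 lower genes had a median of -0.30, and 5 of 12 had an unadjusted p under 0.05, against 3.31% of all genes. Of the 426 genes lower in cohort 7a at that limma threshold, 9.86% were also lower at it in the other cohorts. Of the 488 genes higher in cohort 7a, 7.17% were also higher at it there. Those 5 were PADI2 (-0.44 ± 0.13), MAG (-0.61 ± 0.26), COL5A1 (-0.38 ± 0.14), ARAP1 (-0.36 ± 0.15) and CNTN2 (-0.41 ± 0.17), and each stayed below 0 with each of the 9 libraries left out. The unadjusted p stayed under 0.05 in 8 of the 9 cases for PADI2, 7 for COL5A1 and 6 each for MAG, ARAP1 and CNTN2. It was lost without the HD animal of cohort 7b for each but PADI2, and without the HD animal of cohort 4 for each but MAG. It was also lost without the second LD animal of cohort 7b for MAG and ARAP1, and without the third for MAG and CNTN2. No adjusted p passed in either set of animals. SFRP2 and CEP250 had the opposite sign in the other cohorts, at -1.06 ± 0.67 and 0.19 ± 0.10, and SFRP2 turned to 0.10 without the HD animal of cohort 7b.

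The difference between the cohort 7a estimate and that of cohorts 4 and 7b was tested by an interaction term. It called 0 of 12718 genes, with 250 at an unadjusted p under 0.05 (1.97%). Without the 1 HD animal of cohort 4 there were 666, and without the first LD animal of cohort 4 there were 425. Of the 23 genes, SFRP2, DZIP1, RPAP2, C10orf88 and CEP250 had an unadjusted interaction p under 0.05. The 23 were picked on the cohort 7a difference, which enters the interaction term, so that these p-values describe them and support nothing. DZIP1 was at 0.00 ± 0.12 in the other cohorts, where its HD animals had 1901 normalized reads in cohort 4 and 1761 in cohort 7b, and its LD animals 1667 to 2266 in cohort 4 and 1536 to 1741 in cohort 7b. Among the genes with a mean of at least 50 normalized reads, the 3 of smallest interaction p on the positive side were SLC25A24, a mitochondrial carrier (0.68 ± 0.22 in cohort 7a, -0.43 ± 0.19 in the others), the heat and capsaicin channel TRPV1 (0.45 ± 0.25 and -0.65 ± 0.21) and BCAM, a laminin-binding adhesion protein (-0.05 ± 0.13 and -0.86 ± 0.21). On the negative side they were CEP250, CABYR (-0.50 ± 0.17 and 0.32 ± 0.17) and the kinase-like gene ULK4 (-0.22 ± 0.12 and 0.34 ± 0.12).

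**Figure D2:**
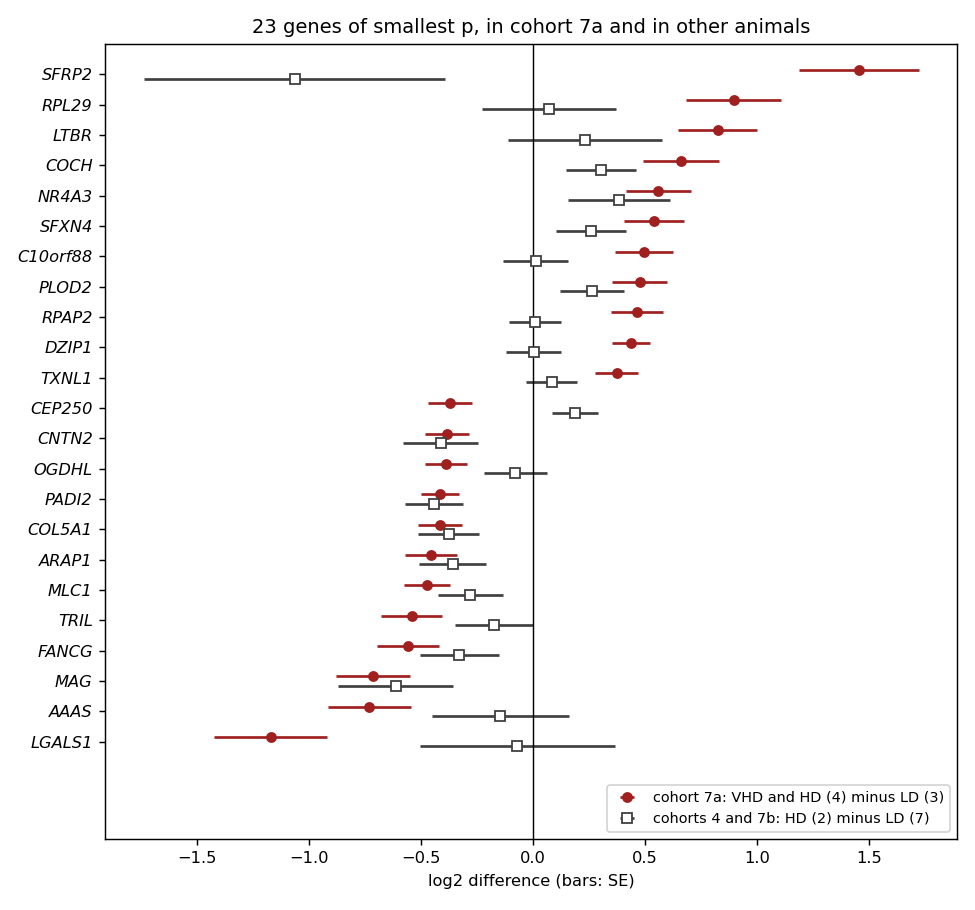
log2 differences with their SE for the 23 genes, in cohort 7a (filled circles, VHD and HD minus LD, 4 against 3 animals) and in cohorts 4 and 7b (open squares, HD minus LD, 2 against 7 animals). Open squares lie on the same side of 0 as the filled circles for 21 of the 23 genes, and SFRP2 and CEP250 lie on the other side.

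Gene lists were described by the members that were measured, beside the median of all genes tested, 0.01, and the 51.4% of all genes that were higher in VHD and HD. With each of the 7 libraries left out in turn, the medians of 17 of 28 lists turned sign and those of 11 kept it. The members MOG, UGT8, SOX10, SLCO1C1, SLC1A2, ADCYAP1, PENK, GABRE and AGA lie outside the naming rule and were chosen after their values were seen. Of 18 oligodendrocyte and myelin markers, 16 were lower, with a median difference of -0.20. MAG was the 1 member with an unadjusted p under 0.05, a threshold at which 3.35% of all genes were lower. The values were -0.66 for CNDP1, -0.35 for the myelin surface glycoprotein MOG and -0.08 for myelin basic protein (MBP). UGT8, which makes the myelin lipid galactosylceramide, was at 0.15, and the lineage factor SOX10 at 0.04. The mean log2 deviation of the list from the 7-animal mean was -0.22 and 0.02 in VHD and 0.03 and -0.24 in HD, against -0.11, 0.13 and 0.38 in LD, so the groups overlapped through the first LD animal. The median was -0.06 without the third LD animal and -0.31 without the first. Fewer oligodendrocytes in the dissected piece and less RNA for each of them cannot be told apart in bulk tissue. In cohorts 4 and 7b all 18 members were lower, against 49.9% of all genes, with a median of -0.21, and 3 were at an unadjusted p under 0.05, against 3.31% of all genes. That median was -0.13 without the first LD animal of cohort 4.

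Of 15 astrocyte markers, GFAP included, 5 were higher and 10 lower, with a median of -0.04 that turned to 0.01 without the third LD animal. FGFR3, a growth factor receptor of astrocytes, was at -0.31 ± 0.13, while the thyroid hormone transporter SLCO1C1 was at 0.44 and the glutamate transporter SLC1A2 at -0.01. Microglial markers had 9 of 15 members higher and a median of 0.06, which was -0.06 without the second HD animal and 0.15 without the first, with the purinergic receptor P2RY12 at 0.34 ± 0.13 and the lysosomal protein CD68 at -0.47 ± 0.33. Excitatory neuron markers had a median of -0.04, which was -0.01 without the first LD animal and -0.08 without the first HD animal. The median of inhibitory neuron markers was -0.01, and it was 0.04 without the first LD animal and -0.07 without the second. Oligodendrocyte precursor markers had a median of 0.09 with 8 of 10 higher, and it was 0.01 without the first LD animal and 0.14 without the second VHD animal. Over all processing alternatives the lowest median of this list was -0.06.

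Neuropeptide genes gave the highest median of the lists, 0.21, with 14 of 17 members higher. Of the members, 4 were higher at an unadjusted p under 0.05, against 3.84% of all genes. NPY, neuropeptide Y of cortical interneurons, which acts against stress and lowers drinking in rodents, had 109 and 119 normalized reads in VHD and 106 and 87.2 in HD, against 62.4, 63.0 and 73.6 in LD. All 4 heavier drinkers were above all LD animals, the BD animal was above both at 122, and the difference was 0.65 ± 0.18. SCG2, the secretogranin of dense-core vesicles, had 1691 and 1937 in VHD and 2262 and 1756 in HD, against 1679, 1523 and 1367 in LD, a difference of 0.32 ± 0.11. The groups did not overlap, but the first VHD and the first LD animal were almost equal. The peptide genes ADCYAP1 (PACAP) at 0.53 and PENK (enkephalin) at 0.49 were the other two. CRH, the corticotropin-releasing hormone, was at 0.05 ± 0.20, and SST, somatostatin, at 0.24 ± 0.17. CRH turned to -0.02 without the first HD animal and -0.05 without the third LD animal. The list score was -0.04 and 0.12 in VHD and 0.20 and 0.12 in HD, against -0.02, -0.18 and -0.21 in LD. The median was 0.07 without the second LD animal and 0.34 without the first. In cohorts 4 and 7b 11 of 17 members were higher, against 50.1% of all genes, with a median of 0.10 that turned to -0.16 without the HD animal of cohort 4; SCG2 was at 0.28 ± 0.10 there and NPY at -0.08 ± 0.31.

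For GABA-A receptor subunits and the proteins that anchor them, 11 of 12 members were higher, with a median of 0.12. GABRG1, a gamma subunit, differed by 0.31 ± 0.11, and all 4 VHD and HD animals were above all 3 LD animals. GABRE, the epsilon subunit, was at -0.31. The list score was 0.03 and 0.09 in VHD and 0.06 and -0.01 in HD, against -0.07, -0.07 and -0.03 in LD. The median was 0.19 without the second LD animal, 0.06 without the third, and 0.03 in cohorts 4 and 7b, where 7 of 12 were higher and the median was -0.01 without the first LD animal of cohort 4. Ionotropic glutamate receptor genes had a median of 0.07, which was 0.02 without the third LD animal, with 8 of 14 higher; the required NMDA subunit GRIN1 was at -0.24 ± 0.09 and GRIN2B at -0.03 ± 0.08, which turned to 0.004 without the second VHD animal and 0.03 without the first LD animal. Metabotropic glutamate receptors had a median of 0.04, which was -0.11 without the third LD animal and 0.12 without the second. Potassium channels sensitive to ethanol had a median of 0.05, which was -0.01 without the second LD animal.

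Immediate early genes were split, with 16 of 29 higher and a median of 0.02, which was -0.02 without the second VHD animal and 0.13 without the first HD animal. BDNF, the neurotrophin whose transcription follows neuronal activity, had 220.0 and 258 normalized reads in VHD and 243 and 281 in HD, against 238, 160.2 and 162 in LD. The first LD animal lay within the VHD and HD range, so the groups overlapped at a difference of 0.44 ± 0.16. FOS had 428 and 497 in VHD and 226 and 309.6 in HD, against 467, 350.3 and 338 in LD; both HD animals were below all LD animals while the second VHD animal was above them, and the difference was -0.12 ± 0.22. The sign for FOS turned to 0.08 without the first HD animal and 0.02 without the first LD animal.

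Genes of the SNARE machinery and vesicle release were lower for 16 of 23 members, with a median of -0.07 that was -0.02 without the first LD animal and -0.10 without the second. NAPA, alpha-SNAP, which takes spent SNARE complexes apart, had 1335 and 1536 normalized reads in VHD and 1217 and 1409 in HD, against 1683, 1649 and 1708 in LD, a difference of -0.29 ± 0.09. It was at -0.28 ± 0.10 in cohorts 4 and 7b, where the median of the list was 0.06 and turned to -0.08 without the HD animal of cohort 7b. Lysosomal genes were lower for 16 of 24 members, with a median of -0.09 that was -0.05 without the first HD animal. The lysosomal calcium channel gene MCOLN1 was at -0.56 ± 0.18 and the sialidase gene NEU1 at -0.34 ± 0.13, while AGA, which cleaves asparagine-linked sugars, was at 0.64 in the other direction. Glucocorticoid receptor and target genes had a median of -0.07, which was -0.20 without the second LD animal and 0.02 without the first, with the receptor NR3C1 at 0.17 ± 0.10, its cochaperone FKBP5 at -0.09 ± 0.32 and ANGPTL4 at -1.26 ± 0.51. FKBP5 turned to 0.29 without the first LD animal and to 0.08 without the first VHD animal. Genes of ethanol and aldehyde metabolism had a median of -0.07, which was 0.02 without the first HD animal and -0.11 without the second LD animal, and mitochondrial ALDH2, which clears acetaldehyde, was at 0.18 ± 0.13. Splicing factors were higher for 22 of 30 members, with a median of 0.07 that was 0.02 without the first HD animal. Their lowest median over all processing alternatives was -0.04. Cytosolic ribosomal proteins were higher for 32 of 54, with a median of 0.04 that was -0.01 without the first VHD animal and 0.10 without the second LD animal. Cholesterol synthesis genes had a median of 0.07, which was -0.10 without the third LD animal and 0.18 without the second. Endothelial markers had a median of -0.12, which was 0.01 without the third LD animal and -0.23 without the second. The median of interferon response genes was -0.06, and it was 0.02 without the third LD animal and -0.14 without the first. Choroid plexus and ependymal markers were at 0.10, and at -0.02 without the second VHD animal and 0.17 without the first LD animal. Clock genes were at 0.09, and at -0.004 without the first LD animal. Histone and DNA modifying enzymes were at -0.06, and at -0.11 without the second LD animal and -0.04 without the first. Nuclear oxidative phosphorylation genes, chaperones and postsynaptic scaffold genes had medians of -0.004, 0.00 and -0.02, and each turned sign with some library left out.

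**Figure D3:**
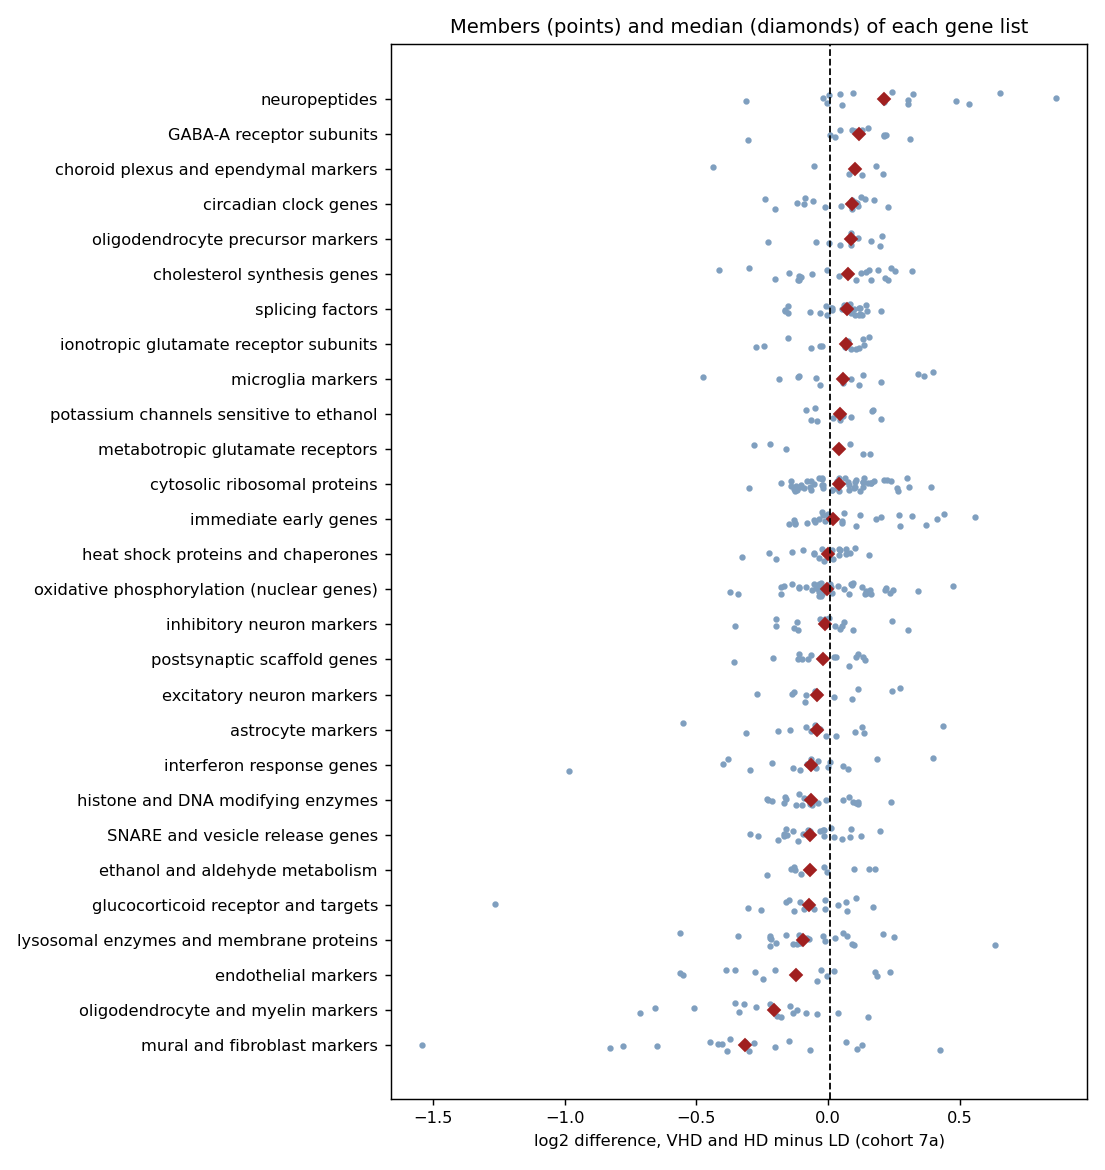
log2 differences of the measured members of 28 gene lists (points, VHD and HD minus LD, cohort 7a) with the median of each list (diamonds) and of all genes tested (dashed line, 0.01). Neuropeptides stand at the top with a median of 0.21, and myelin markers (-0.20) and mural and fibroblast markers (-0.32) at the bottom; the blood cell list, with 1 tested member, is not drawn.

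Mural and fibroblast markers, genes of vessel walls and meninges, had the lowest median, -0.32, with 15 of 19 members lower. Of the members, 4 were lower at an unadjusted p under 0.05, against 3.35% of all genes. CNN1, a smooth muscle calponin, had 12.8 and 3.49 normalized reads in VHD and 3.35 and 2.57 in HD, against 12.9, 17.1 and 15.9 in LD; its first VHD animal nearly reached the lowest LD animal. PDGFRB, the pericyte receptor for platelet-derived growth factor, had 490.2 and 518 in VHD and 499 and 566 in HD, against 776, 540.4 and 739 in LD, a difference of -0.39 ± 0.13. The list score was 0.34 and 0.03 in VHD and -0.45 and -0.51 in HD, against 0.40, -0.35 and 0.54 in LD, so that both HD animals and the second LD animal were low while both VHD animals lay between the second LD animal and the other two. The median was -0.06 for VHD minus LD and -0.66 for HD minus LD, which share the LD animals. Without the second LD animal the list median was -0.61, without the third -0.08, without the first -0.16, without the first HD animal -0.17 and without the second HD animal -0.20. In cohorts 4 and 7b the HD minus LD median was -0.86, with 17 of 19 members lower, against 49.9% of all genes, and 10 lower at an unadjusted p under 0.05, against 3.31% of all genes. That median was -0.49 without the HD animal of cohort 7b and -1.07 without the HD animal of cohort 4.

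**Figure D4:**
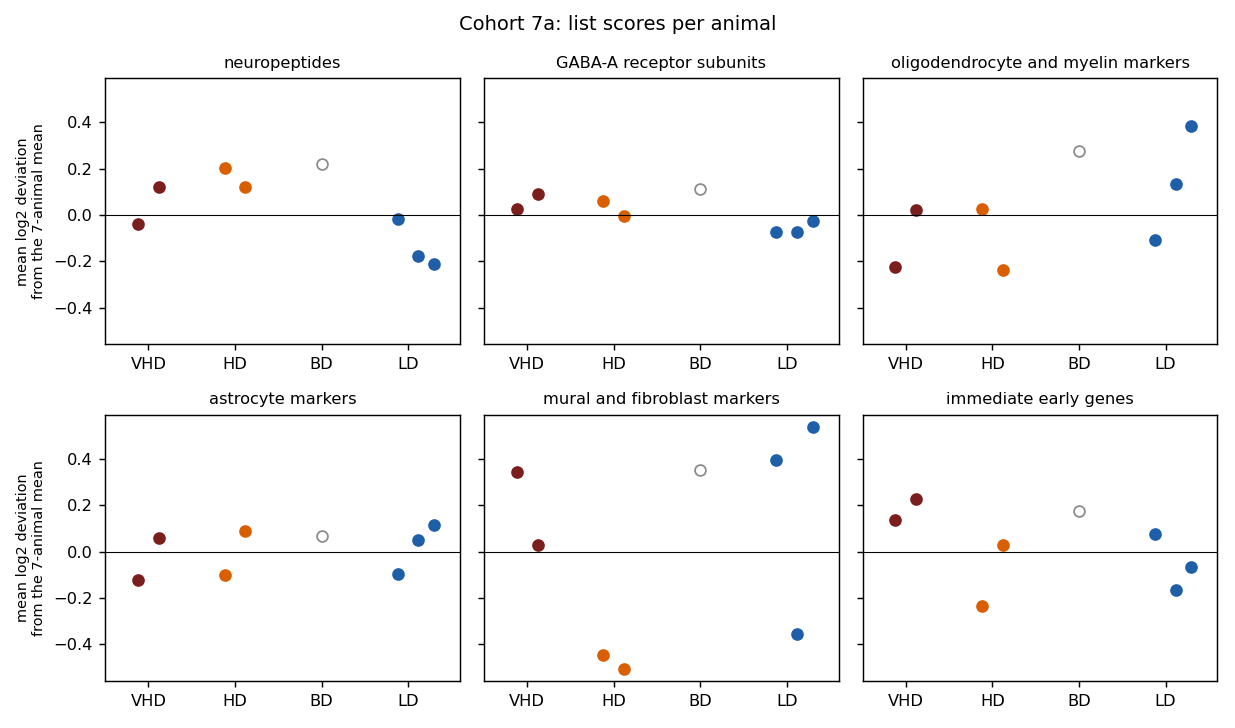
Mean log2 deviation of 6 gene lists from the mean of the 7 animals, for each animal of cohort 7a (points, BD open and not in that mean). For mural and fibroblast markers the HD animals lie at -0.45 and -0.51, the VHD animals at 0.34 and 0.03 and the LD animals at 0.40, -0.35 and 0.54, whereas for GABA-A receptor subunits the 4 VHD and HD animals lie above the 3 LD animals.

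VHD and HD were also set against each other, 2 animals against 2, with the spread taken over the 3 groups of the cohort. limma called 0 of 12718 genes, with 427 at an unadjusted p under 0.05 (3.36%). COL1A1, the collagen I chain of fibroblasts, had 529.8 and 458 normalized reads in VHD and 191 and 173 in HD, against 640.2, 336 and 631 in LD, and the VHD minus HD difference was 1.43 ± 0.26. OGN, a small proteoglycan of connective tissue, had 1279.5 and 1146 in VHD and 479 and 343 in HD, against 907, 439 and 935 in LD (1.58 ± 0.29). OMD, a related proteoglycan, had 121 and 112 in VHD and 48.6 and 35.1 in HD, against 70.6, 83.3 and 131 in LD (1.47 ± 0.31). For these 3 genes the VHD animals were above the HD animals, and the second LD animal was the lowest LD animal for COL1A1 and OGN. The genes named in both directions were picked on this contrast, so that their order and differences describe them and support nothing. The share of all genes with such an order was not computed. The genes named in the other direction were ZNF16 (-0.69 ± 0.16), the lipoprotein lipase gene LPL (-0.73 ± 0.18) and SLC35E2 (-0.53 ± 0.13). Without the second LD animal limma called 4 genes between VHD and HD, which were COL1A1, COL3A1, OGN and SLC13A4. Of these COL3A1 and SLC13A4 were named after their values were seen. In this fit leaving out an LD animal leaves each VHD minus HD difference as it was. It changes only the spread behind the p-values. Without the first HD animal 1051 genes had an unadjusted p under 0.05, and without the second HD animal 847. Against the same LD animals, SFRP2 was at 1.52 in VHD and 1.39 in HD, and PADI2 at -0.40 in VHD and -0.43 in HD.

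Exon usage, the log2 reads of an exon less those of the rest of its gene, was compared for 97873 exons of 9801 genes. With 1 variance for each exon and no variance trend, limma called 0 exons, with 5353 at an unadjusted p under 0.05 (5.47%) and a smallest adjusted p of 0.585. This form was chosen after counts under other forms had been seen: a variance trend over exon level called 6 exons and a trend over usage called 0. The 3 exons of smallest p in each direction are described by their values. Their positions are those of the exon names, whose build is not given in the sources used here.

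The exon at 7:166659483-166659561 of NDUFB2, an accessory subunit of respiratory complex I with 4 exons in the table, had 59.7 and 69.1 normalized reads in VHD and 45.1 and 61.9 in HD, against 3.49, 0 and 1.14 in LD. The animals were nearly all or none, and the BD animal, at 2.95, sat with the LD animals. The usage difference was 4.77 ± 0.48, while the gene as a whole differed by 0.18. Over all 30 animals the exon fell into 15 under 5 and 15 over 30 normalized reads, bounds set after the values were seen. Outside cohort 7a it was over 30 in 1 of 4 VHD, 2 of 5 HD, 3 of 6 BD and 5 of 7 LD animals, so both levels occurred in every category and the order of cohort 7a was not seen there.

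FCHO2, a protein of clathrin-coated pits, had 15.98 and 10.58 normalized reads in the exon at 5:69403204-69403300 in VHD and 15.02 and 12.73 in HD, against 3.49, 4.35 and 4.55 in LD, and SESTD1 had 11.7 and 10.6 in the exon at 2b:66144690-66144798 in VHD and 13.4 and 11.9 in HD, against 2.33, 3.27 and 4.55 in LD. Both are few reads, and the BD animal, at 16.2 and 8.84, was on the side of the heavier drinkers for FCHO2 and between the groups for SESTD1. On the lower side, the exon of ATRNL1 at 10:111577657-111577771 had 66.0 and 69.1 in VHD and 46.7 and 75.5 in HD, against 139, 175 and 182 in LD, a usage difference of -1.48 ± 0.18. AHI1, a protein of the ciliary transition zone, had 24.5 and 16.9 in VHD and 18.4 and 19.5 in HD, against 44.2, 66.4 and 55.8 in LD, at 6:131750502-131750557. For AUH, an enzyme of leucine breakdown, the exon at 9:3892959-3893051 had 18.1 and 21.2 in VHD and 16.7 and 16.1 in HD, against 37.3, 51.2 and 44.4 in LD. In all 3, picked for such a difference, the heavier drinkers were well below the LD animals. The genes as a whole differed by 0.12, -0.12 and -0.11. Outside cohort 7a, where 4 VHD, 5 HD and 7 LD animals were measured, the groups overlapped for each of these exons. The medians there for ATRNL1 were 58.0 in VHD and 118 in HD, against 72.5 in LD, and for AHI1 they were 18.6 in VHD and 21.3 in HD, against 17.1 in LD. AUH had medians of 24.9 in VHD and 24.6 in HD, against 23.2 in LD. By these medians the lower level of cohort 7a was not seen outside it for AHI1 or AUH. For ATRNL1 it was seen in VHD and not in HD. These medians mix cohorts, as cohort 5 has no LD animal. In cohort 7b the HD animal was below all LD animals for all 3 exons. It had 48.64 against 71.93 to 125.2 for ATRNL1, 14.30 against 15.54 to 48.06 for AHI1, and 11.44 against 19.04 to 25.03 for AUH. In cohort 4 the HD animal was above all LD animals for ATRNL1 (143.05 against 55.63 to 116.2) and AUH (40.05 against 20.03 to 35.23). For AHI1 it lay among them. For FCHO2 the medians were 10.00 in VHD and 9.03 in HD, against 6.49 in LD. For SESTD1 they were 9.70 in VHD and 11.6 in HD, against 5.48 in LD. By these medians, which mix cohorts in the same way, both were higher in the heavier categories as in cohort 7a. In cohort 4 the HD animal was above all LD animals for FCHO2 (12.16 against 4.01 to 9.77) and SESTD1 (22.17 against 3.66 to 11.13). In cohort 7b the HD animal was below all LD animals for FCHO2 (5.72 against 6.01 to 13.40). For SESTD1 it lay among them (7.15 against 4.94 to 14.02). No VHD animal outside cohort 7a shares a cohort with an LD animal.

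**Figure D5:**
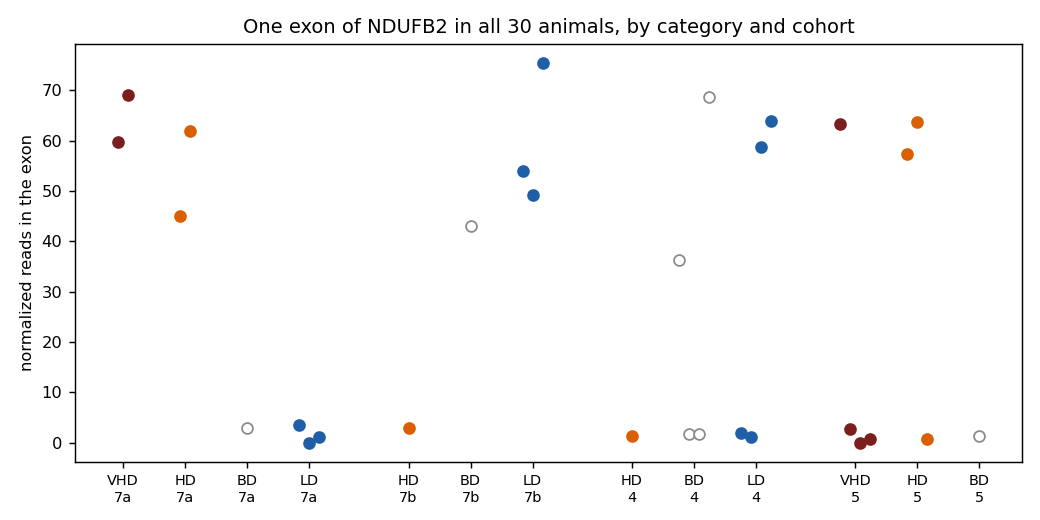
Normalized reads in the NDUFB2 exon for all 30 animals (points), by cohort and category. In cohort 7a the VHD and HD animals lie at 45.1 to 69.1 and the LD animals at 0 to 3.49, and in the other cohorts both levels occur in VHD, HD, BD and LD.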

How the data were processed

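Area 32 RNA of 30 animals was sequenced, and the authors' deposited tables of genes and exons hold a signal: reads that had been put on one upper quartile across libraries, judged from the values. CASAVA, FastQC, STAR 2.3.0e and edgeR are named per the submitters' processing notes; of the counting program, build, annotation and strand setting, none is given in the sources used here. Dividing by the value of 1 read gave whole reads for 100% of values (within 0.01) in the 7 libraries, and gene reads equal the sum of exon reads.

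Genes with a value of 10 or more in at least 3 libraries (12718 of 15521) were tested as log2(value + 1) with limma 3.58.1 (trended eBayes) in R 4.3.3, adjusted by Benjamini-Hochberg at 0.05, and with edgeR 4.0.16 on the recovered reads. Exon usage used limma with 1 variance per exon. VHD against HD used a fit of 3 groups, and cohorts 4 and 7b a cohort term. Named genes are the 12 of smallest p in each direction at a mean of at least 50, 2 members of each list, 12 fixed genes, and 3 genes or exons in each direction for the other comparisons; some genes that this takes in are not reported here. Members and lists were chosen with earlier results of these data known. The fits were tested on simulated data. Medians used pandas 2.3.3 and exact tests scipy 1.17.1 in Python 3.11.15. Alternatives were pseudocounts, minimum values, scaling, array weights, depth, library numbers and left-out libraries. Libraries are separate animals, and precision is limited by their number.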

Additional observations from a re-analysis of the deposited data

Results flagged for a closer look

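A library was marked where, within 4 animals, its gap to the nearest other animal took a large share of the range of the group (Dixon's ratio). This was asked of the VHD and HD animals of cohort 7a and of the LD animals of cohort 4, for each named gene, 190 groups in all, and 13 were marked; chance marks about 1 in 20 groups. Among the VHD and HD animals, the first VHD animal was the highest for CD93 (ratio 0.858) and CNN1 (0.8294), where it had 12.8 normalized reads against 2.57 to 3.49 in the other three. The second VHD animal was the lowest for GRM5 (0.925) and the highest for TEF (0.904), and the second HD animal was the highest for MCOLN1 (0.891), at 149.7 against 95.1 to 99.9.

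In the LD animals of cohort 4, the first was apart for 5 genes, being the highest for AAAS (0.920) and ARAP1 (0.857) and the lowest for CD8A (0.852), TEF (0.831) and NR3C1 (0.858). That library has 4.39 M reads in the listed genes (M, 10 to the power of 6), the fewest of the 30. Without it, the HD minus LD difference in cohorts 4 and 7b was -0.11 for AAAS (-0.15 with it), -0.30 for ARAP1 (-0.36), -0.29 for CD8A (-0.21), -0.20 for TEF (-0.15) and -0.10 for NR3C1 (-0.03), and the unadjusted p stayed under 0.05 for ARAP1 and over it for the other 4. The third was the lowest for GRM2 (0.923), and the fourth was the lowest for COL5A1 (0.840) and the highest for FOS (0.855).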

How the results depend on the processing

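The count of called genes in cohort 7a was 0 under all 18 alternatives run. The 914 genes at an unadjusted p under 0.05 became 1975 with array weights and 435 with only library numbers above 8. They became 1311 with log2 depth as a term in the fit, where the smallest adjusted limma p was 0.133. Leaving out each library gave 402 to 1665, and the cause was not tested. Of the 914 genes 53.4% were higher in VHD and HD, against 47.3% with log2 depth as a term and 43.3% with edgeR. The share was 45.1% (400 higher, 486 lower) with median-of-ratios scaling, which moved the median of all genes by -0.01. In cohorts 4 and 7b leaving out each library gave 0 to 3 called genes and 382 to 957 at the unadjusted threshold, for the interaction 199 to 666 (137 with a minimum of 100), and for VHD against HD 0 to 4 called and 350 to 1051. Exon usage, with 0 called, had 1 with a pseudocount of 4, 6 with a variance trend over exon level (added after the data were seen), 0 with one over usage and 0 to 1 with each library left out. Signs turned for 6 genes with no call, most of them near 0. With only library numbers above 8 CD68 was at 0.0193, FOS at 0.0421, CRH at -0.0605 and FKBP5 at 0.189. With each library left out KCNJ13 ran from -0.00395 to 0.240, FOS from -0.293 to 0.0843, CRH from -0.0540 to 0.181, FKBP5 from -0.468 to 0.289 and GRIN2B from -0.0624 to 0.0324. No paired analysis was possible, since each library is a separate animal in 1 drinking category and the labels name no pairs.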
